A study of Mus musculus with 11 samples.

Results

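The secreted antagonists of WNT signalling described here are 8 genes, Sfrp1, Sfrp2, Sfrp4, Sfrp5, Frzb, Dkk2, Dkk3 and Wif1, taken by symbol from the 55487 gene identifiers of the deposited count table. All 8 were among the 23779 genes that passed the low-count filter. The genes were picked with earlier results on the same libraries known, over all 3 groups. Their levels, fold changes and counts of calls are therefore a description, and no p-value is given for them. The libraries were made from hearts of female C57BL/6NTac mice that entered the experiment at 8 weeks of age and spent 24 weeks on 1 of the diets. The control group (4 libraries) ate a diet with 10.4% of its energy from fat. The obese group (4 libraries) ate a diet with 60.3% of its energy from fat, supplemented with sweetened condensed milk, and was gavaged with 10% PEG400 vehicle. The treated group (3 libraries) had the obesogenic feeding and, after week 16, gavage of dasatinib (5 mg/kg), a tyrosine kinase inhibitor, with quercetin (50 mg/kg), a plant flavonoid, in the same vehicle. Together the pair is used as a senolytic, a treatment meant to clear senescent cells. The sources used here do not say whether the control group was gavaged, so diet and gavage cannot be told apart.

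WNT proteins are secreted lipid-modified ligands that bind Frizzled receptors, in the beta-catenin branch together with the co-receptors LRP5 and LRP6. Secreted frizzled-related proteins (the SFRP family, in which Frzb is also called Sfrp3) carry a cysteine-rich domain like that of Frizzled and bind WNT in the extracellular space, as does WNT inhibitory factor 1 (Wif1), which has a WIF domain and EGF-like repeats. Dickkopf proteins act instead on the co-receptors: DKK1 and DKK2 bind LRP5 or LRP6 and Kremen, whereas DKK3 is a divergent member that does not share this mode of binding. In the adult heart the pathway has been studied mainly in fibroblasts, the epicardium, valves and remodelling after injury.

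Library totals were 73.1 to 103.3 M counts in control, 52.7 to 67.2 M in obese and 64.2 to 72.3 M in treated libraries. Mitochondrial genes took 28.2 to 32.3% of counts in control, 21.4 to 24.5% in obese and 17.8 to 22.4% in treated libraries, and TMM factors were 0.733 to 0.954 in control and 1.02 to 1.198 in the other libraries. Control libraries thus stood apart in both, and the part of these differences in the comparisons was not tested. Levels are given as CPM (counts scaled to a common library size) over library sizes adjusted by TMM. The summed level of 10 ventricular and general myocyte markers (Myh6, Tnnt2 and others) ran from 24256 to 42199 CPM over the 11 libraries, and none of these genes was at 0, as fits the heart label. The libraries were not alike in markers of other heart parts. The sum of 12 atrial myocyte markers (Dkk3 left out) was 178 to 256 CPM in control libraries, 191, 241 and 389 CPM in obese replicates 1, 2 and 4 and 220 CPM in treated replicate 1, but 2419 CPM in obese replicate 3 and 3090 and 6063 CPM in treated replicates 2 and 3. The sum of 12 valve, tendon and cartilage-type markers was 43.7 to 70.2 CPM in 7 libraries (all control, obese 1 and 4, treated 1) and 178 to 185 CPM in obese replicates 2 and 3 and treated replicates 2 and 3. The sum of 10 conduction system markers was 68.8 to 81.8 CPM in control libraries, 81.0, 155, 326 and 137 CPM in obese replicates 1 to 4 and 88.2, 237 and 278 CPM in treated replicates 1 to 3. Obese replicates 2 and 3 and treated replicates 2 and 3 were also the highest in 8 adipocyte markers, at 8.69 to 11.2 CPM against 0.255 to 1.33 CPM elsewhere. In these bulk libraries, fewer cells of a type and less RNA per cell cannot be told apart.

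Sfrp5 was low in every control library and far higher in some of the others. This gene (ENSMUSG00000018822, GRCm38 chromosome 19 from 42197971 to 42202252, minus strand) encodes an SFRP that is known as an adipokine, a factor secreted by fat tissue. It measured 0.566, 0.445, 0.707 and 0.593 CPM in control replicates 1 to 4. In obese replicates 1 to 4 it measured 1.06, 4.23, 22.1 and 4.40 CPM, and in treated replicates 1 to 3 it measured 1.74, 26.6 and 25.7 CPM. Every obese and every treated library lay above every control library, and the highest values were in obese replicate 3 and treated replicates 2 and 3, which had the highest sums of both atrial and conduction system markers. The fitted log2 fold change was 3.77 (SE 1.11) for obese against control, 1.18 (SE 1.01) for treated against obese and 4.96 (SE 1.18) for treated against control. The contrast of obese against control stood at 2.48 when obese replicate 3 and treated replicates 2 and 3, the libraries with the highest atrial sums, were left out. It stood at 2.25 without obese replicates 2 and 3 and treated replicates 2 and 3, the libraries with the highest valve-type sums, a set that was chosen after seeing the data. The first set holds the highest Sfrp5 and Dkk3 values, and for every antagonist other than Sfrp5 the second set holds the highest obese and treated values. Lower fold changes without them therefore follow from the choice of libraries and say nothing of their marker levels. The values left without the second set, 1.06 and 4.40 CPM in obese and 1.74 CPM in treated libraries, exceeded all 4 control values. This was fixed in advance, since every obese and treated library lay above every control library.

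Promoter sequence is shown for Sfrp5 and, for comparison, for Sfrp2, a close relative with a smaller spread, and Dkk2, the other gene that passed the edgeR threshold with diet. RefSeq windows (GRCm38.p6) matched 5 of the 8 genes, and for these 3 the RefSeq start coincided with the GENCODE start. Each line holds the 250 bases before the start, 5′ to 3′ on the gene's own strand. Both strands were searched for the letters CTTTGA or else CTTTGT, which form the core of TCF/LEF sites (the factors that act with beta-catenin). The other strings were AGATAA for zinc-finger factors of the Gata family, AGGTGT for T-box factors, TATAAA for the TATA box and GGGCGG for the GC box. Capitals mark every match.
Sfrp5 (chr19:42202253-42202502, minus strand): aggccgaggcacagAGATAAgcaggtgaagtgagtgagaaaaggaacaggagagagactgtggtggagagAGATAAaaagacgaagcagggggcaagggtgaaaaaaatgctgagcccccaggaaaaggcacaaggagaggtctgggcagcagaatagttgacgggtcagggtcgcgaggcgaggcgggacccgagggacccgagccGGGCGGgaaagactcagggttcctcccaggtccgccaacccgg
Sfrp2 (chr3:83766071-83766320, plus strand): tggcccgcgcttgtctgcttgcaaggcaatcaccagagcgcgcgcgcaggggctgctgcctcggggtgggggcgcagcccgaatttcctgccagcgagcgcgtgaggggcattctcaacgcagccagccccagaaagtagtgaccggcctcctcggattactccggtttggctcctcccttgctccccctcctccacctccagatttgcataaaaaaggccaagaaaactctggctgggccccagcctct
Dkk2 (chr3:132085042-132085291, plus strand): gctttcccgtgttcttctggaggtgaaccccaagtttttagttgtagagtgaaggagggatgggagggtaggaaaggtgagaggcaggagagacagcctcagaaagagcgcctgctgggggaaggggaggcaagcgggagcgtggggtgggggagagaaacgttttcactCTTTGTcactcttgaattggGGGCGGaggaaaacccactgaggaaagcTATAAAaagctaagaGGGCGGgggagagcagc
The Sfrp5 window held AGATAA 236 and 180 bases before the start and GGGCGG 43 bases before it. The Dkk2 window held CTTTGT at 80 bases, TATAAA at 32 bases and GGGCGG at 60 and 17 bases before the start, and the Sfrp2 window held none of these strings. Of 32851 RefSeq windows of the same length, 9.99% held AGATAA, 16.5% CTTTGT, 12.4% TATAAA and 32.7% GGGCGG. The GC content was 59.6% in the Sfrp5 window, 63.6% in the Sfrp2 window and 55.6% in the Dkk2 window, against a median of 52.4%. The matches are descriptions of letters, not of bound sites.

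Sfrp1 varied least of the 8 antagonists, with an SD of 0.44 in log2 CPM over the 11 libraries. The gene (ENSMUSG00000031548, chromosome 8 from 23411502 to 23449632) encodes a WNT-binding antagonist made by stromal cells of many tissues. Its control values were 19.2, 13.1, 14.2 and 12.1 CPM. The obese values were 9.57, 20.4, 22.9 and 15.8 CPM and the treated values 14.1, 27.2 and 22.8 CPM. The 3 groups overlapped. The log2 fold change was 0.23 (SE 0.27) for obese against control, 0.32 (SE 0.29) for treated against obese and 0.55 (SE 0.29) for treated against control. Obese replicates 2 and 3 and treated replicates 2 and 3 were again the highest of their groups, and obese replicate 1 was the lowest of all libraries.

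Sfrp2 was highest in the same obese and treated libraries as Sfrp1, over a wider range. It lies on chromosome 3 from 83766321 to 83774316 (ENSMUSG00000027996), and its product is known as a paracrine factor of stromal and mesenchymal cells. Control values were 2.29, 1.05, 3.02 and 3.07 CPM. Obese replicates 1 to 4 held 1.10, 7.36, 6.18 and 2.14 CPM, and treated replicates 1 to 3 held 2.91, 7.69 and 11.3 CPM. The obese group straddled the control group: replicates 2 and 3 lay above all control libraries, while replicates 1 and 4 lay within the control range. The log2 fold change was 0.83 (SE 0.62) for obese against control and 1.63 (SE 0.66) for treated against control. Obese against control was -0.53 without the 4 libraries with the highest valve-type sums, which are also the 4 highest in Sfrp2. The antisense locus Gm26771 overlaps Sfrp2, and whether counting used strand is not known here, but it held at most 9 counts in any library.

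Frzb separated the obese and treated libraries into those above and those below all controls. It lies on chromosome 2 from 80411970 to 80447625 (ENSMUSG00000027004) on the minus strand, and its product was first described in cartilage. The 4 control libraries lay close together, at 5.39, 4.72, 4.57 and 6.37 CPM. Obese replicates 1 and 4 held 2.65 and 3.42 CPM and treated replicate 1 held 3.18 CPM. Obese replicates 2 and 3 held 11.7 and 12.2 CPM, and treated replicates 2 and 3 held 7.26 and 7.74 CPM. No obese or treated value fell inside the control range. The group means hid this: 5.26 ± 0.820 CPM in control (SD, n = 4), 7.50 ± 5.16 CPM in obese (SD, n = 4) and 6.06 ± 2.50 CPM in treated libraries (SD, n = 3), with log2 fold changes of 0.51 (SE 0.48), -0.31 (SE 0.52) and 0.21 (SE 0.52) for obese against control, treated against obese and treated against control. Without the 4 libraries with the highest valve-type sums, which are the 4 above all controls in Frzb, obese against control was -0.78 (SE 0.21), as the remaining values fix. With the mean log2 CPM of the valve-type list as a covariate, also added after seeing the data, it was -0.91 (SE 0.19), and treated against control was -1.49 (SE 0.22). That score was highest in the same 4 libraries, and its list holds Prelp, the gene with the profile closest to Frzb. The score and Frzb thus cannot be told apart in these fits, and the part of valve-type cells was not tested.

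Sfrp4, which is close to Frzb within the family, was scarce in these hearts. The locus is ENSMUSG00000021319 on chromosome 13 from 19623104 to 19632994, and all 11 libraries together held 462 counts of it. Control replicates 1 to 3 measured 0.340, 0.416 and 0.651 CPM, and control replicate 4 was listed at 0 counts, which allows up to 0.0468 CPM (3 counts). Obese values were 0.497, 1.24, 1.29 and 0.291 CPM, and treated values were 0.355, 0.709 and 0.755 CPM. Obese replicates 2 and 3 stood above the remaining libraries, and the groups overlapped. The log2 fold change was 1.21 (SE 0.73) for obese against control, and 0.81 without control replicate 4.

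Wif1 was raised in 1 control library as well. It lies on chromosome 10 from 121033960 to 121100650 (ENSMUSG00000020218). Control values were 0.892, 1.16, 5.79 and 1.39 CPM. Obese values were 1.23, 7.44, 12.7 and 2.67 CPM. Treated values were 3.46, 4.05 and 4.62 CPM, the narrowest group for this gene. Control replicate 3 thus exceeded every treated library and 2 of the 4 obese libraries. The log2 fold change was 1.37 (SE 0.78) for obese against control and 2.38 without control replicate 3, and it was -0.24 without the 4 libraries with the highest valve-type sums, which include the highest obese values. Treated against obese was -0.57 (SE 0.83) and treated against control 0.80 (SE 0.82).

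Of the Dickkopf genes, Dkk3 had by far the widest range of all the antagonists. Located on chromosome 7 from 112116017 to 112159057 (ENSMUSG00000030772) on the minus strand, it encodes a secreted glycoprotein. Control libraries held 1.90, 1.45, 3.63 and 3.92 CPM. Obese replicates 1 to 4 held 1.66, 28.3, 136.6 and 13.7 CPM, and treated replicates 1 to 3 held 3.74, 115.1 and 245.1 CPM. Obese replicate 1 and treated replicate 1 lay within the control range, while the other 5 obese and treated libraries lay above it. The highest 3 were the 3 libraries with the highest atrial sums, and the highest of these in Dkk3, treated replicate 3, was also the highest in atrial markers. The log2 fold change was 4.05 (SE 1.502) for obese against control, 1.43 (SE 1.40) for treated against obese and 5.47 (SE 1.63) for treated against control. Without these 3 libraries, which leaves 1 treated library, they were 2.41, -1.95 and 0.47. With the atrial marker score as a covariate, obese against control was 1.21 and treated against control 0.75. Dkk3 was itself on the atrial list as drawn up and was left out of the score, which was highest in the same 3 libraries. The score and Dkk3 thus cannot be told apart in this fit, and the part of atrial cells in Dkk3 was not tested.

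Dkk2 was close to the detection limit. It lies on chromosome 3 from 132085292 to 132180304 (ENSMUSG00000028031) and held 141 counts over the 11 libraries. Control replicates 1 to 4 held 0, 0, 6 and 3 counts, where 0 allows up to 0.0430 CPM. Obese replicates held 16, 33, 40 and 4 counts (0.274, 0.519, 0.639 and 0.0583 CPM), and treated replicates held 0, 13 and 26 counts. Obese replicates 1, 2 and 3 and treated replicates 2 and 3 lay above all controls, while obese replicate 4 and treated replicate 1 lay within the control range. The log2 fold change of 3.56 (SE 1.07) for obese against control rests on at most 6 counts in any control library. No control library reached the minimum count of 10 of the low-count filter, so Dkk2 passed it only through obese and treated libraries. Its call with the diet is therefore no support for a difference.

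**Figure D1:**
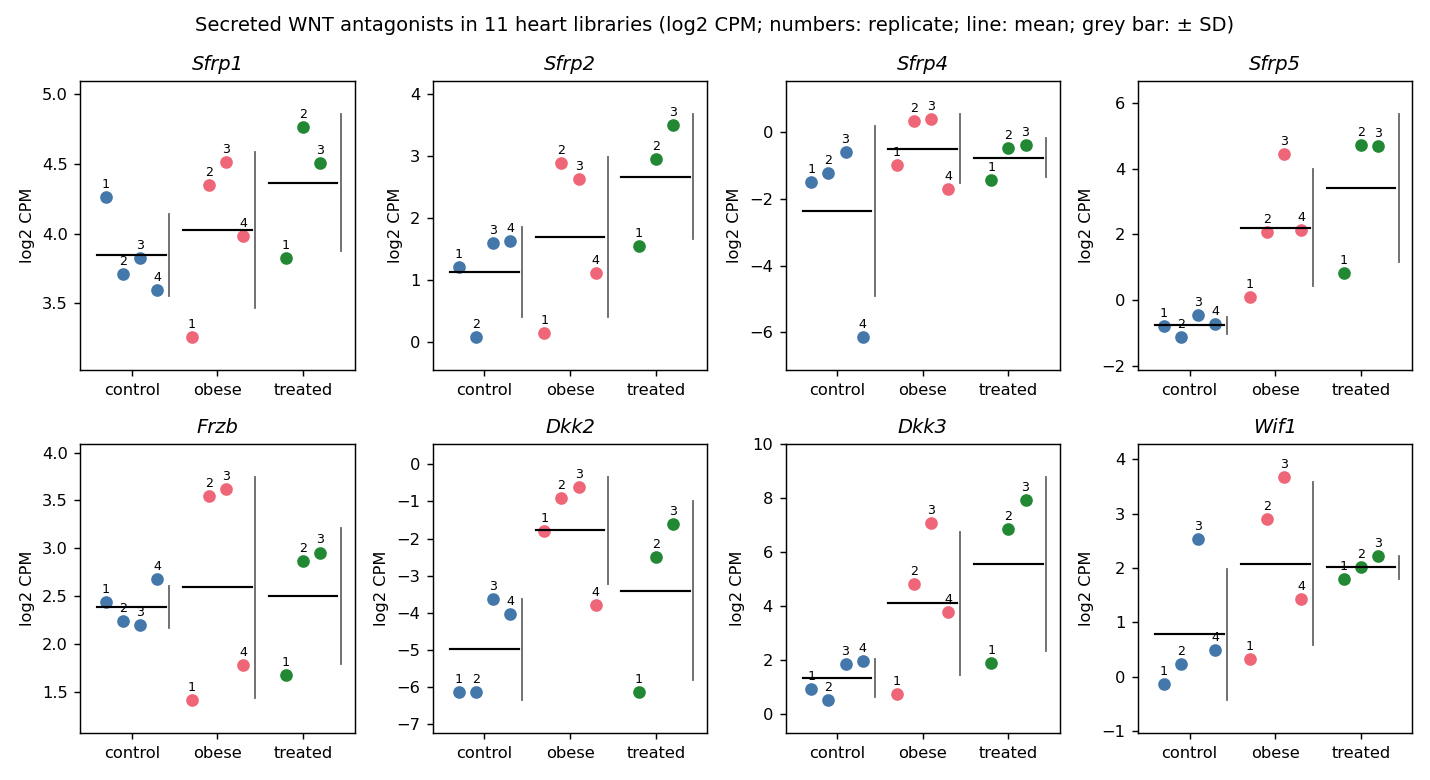
Each panel plots 1 antagonist gene, with log2 CPM (prior count 1) on the vertical axis and the control, obese and treated groups on the horizontal axis. Points are libraries labelled by replicate, horizontal lines are group means and grey bars ± SD, and points near -6 are libraries with 0 counts (Sfrp4 and Dkk2). In Sfrp5 all obese and treated libraries lie above the controls, and in Frzb they lie either above or below them.

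Per kilobase of exon, the order of the antagonists changed between groups. On the control diet Sfrp1 led with 3.35 ± 0.723 CPM per kb (SD, n = 4), followed by Frzb at 1.62 ± 0.253, Sfrp2 at 1.10 ± 0.438, Wif1 at 0.951 ± 0.960, Dkk3 at 0.811 ± 0.367 and Sfrp5 at 0.304 ± 0.0566 CPM per kb. Sfrp4 and Dkk2 followed at 0.0841 and 0.00770 CPM per kb. Ranges over the control libraries overlapped between each pair of neighbours from Frzb to Dkk3. The lowest Sfrp1 value (2.76 CPM per kb) exceeded the highest of Frzb (1.97), and the lowest of Dkk3 (0.431) exceeded the highest of Sfrp5 (0.372). In obese libraries the order of means was Dkk3 (13.4 ± 18.5 CPM per kb; SD, n = 4), Sfrp5 (4.18 ± 5.03), Sfrp1 (3.92 ± 1.34), Wif1 (2.48 ± 2.14), Frzb (2.32 ± 1.59) and Sfrp2 (1.95 ± 1.41), and no pair of neighbours differed beyond its spread. The mean of Sfrp5 exceeded that of Sfrp1 through obese replicate 3 alone (11.6 against 5.23 CPM per kb). In treated libraries the largest mean per kb was that of Dkk3 (36.1 ± 36.0 CPM per kb; SD, n = 3), then Sfrp5 (9.49 ± 7.43), Sfrp1 (4.89 ± 1.52), Sfrp2 (3.38 ± 1.94), Frzb (1.87 ± 0.774) and Wif1 (1.67 ± 0.239). Dkk3 and then Sfrp5 were highest in treated replicates 2 and 3. In treated replicate 1 Sfrp1 was highest again, at 3.23 CPM per kb, against 1.11 for Dkk3 and 0.918 for Sfrp5.

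Side by side with the marker lists, the antagonists also differed between libraries of the same group. After each gene was centred on its own mean over the 11 libraries, the root mean square difference in log2 CPM between Sfrp5 and Dkk3 was 0.74, against 1.49 or more between Sfrp5 and each other antagonist, where the SD over libraries was 2.21 for Sfrp5 and 2.63 for Dkk3. The distance is unscaled, so genes that varied little, such as Sfrp1 (SD 0.44), lay far from Sfrp5 whatever their pattern. Obese replicate 2 was mixed. Relative to the mean of the 11 libraries, on the log2 scale, it stood at -0.47 for the atrial list, 0.70 for the conduction list, 1.57 for the valve-type list and 2.21 for the adipocyte list. It stood at 1.13 for Sfrp2, 1.06 for Frzb, 1.33 for Dkk3 and 0.64 for Sfrp5. Obese replicate 3 stood at 0.88, 1.12, 3.60 and 3.02 for the same genes. The libraries therefore differed more in Dkk3 and Sfrp5 than in Sfrp2 and Frzb, but obese replicate 2 was above the mean in all 4. Mesothelial and epicardial markers, which were highest in treated replicates 2 and 3 (137 and 89.4 CPM in sum, against 15.8 to 52.5 CPM elsewhere), were high in libraries that were also high in Sfrp5 and Dkk3. Fibroblast markers differed less, with sums of 673 to 835 CPM in control, 500 to 1099 CPM in obese and 563 to 1072 CPM in treated libraries. The part of any of these cell types in the antagonist levels was not tested.

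**Figure D2:**
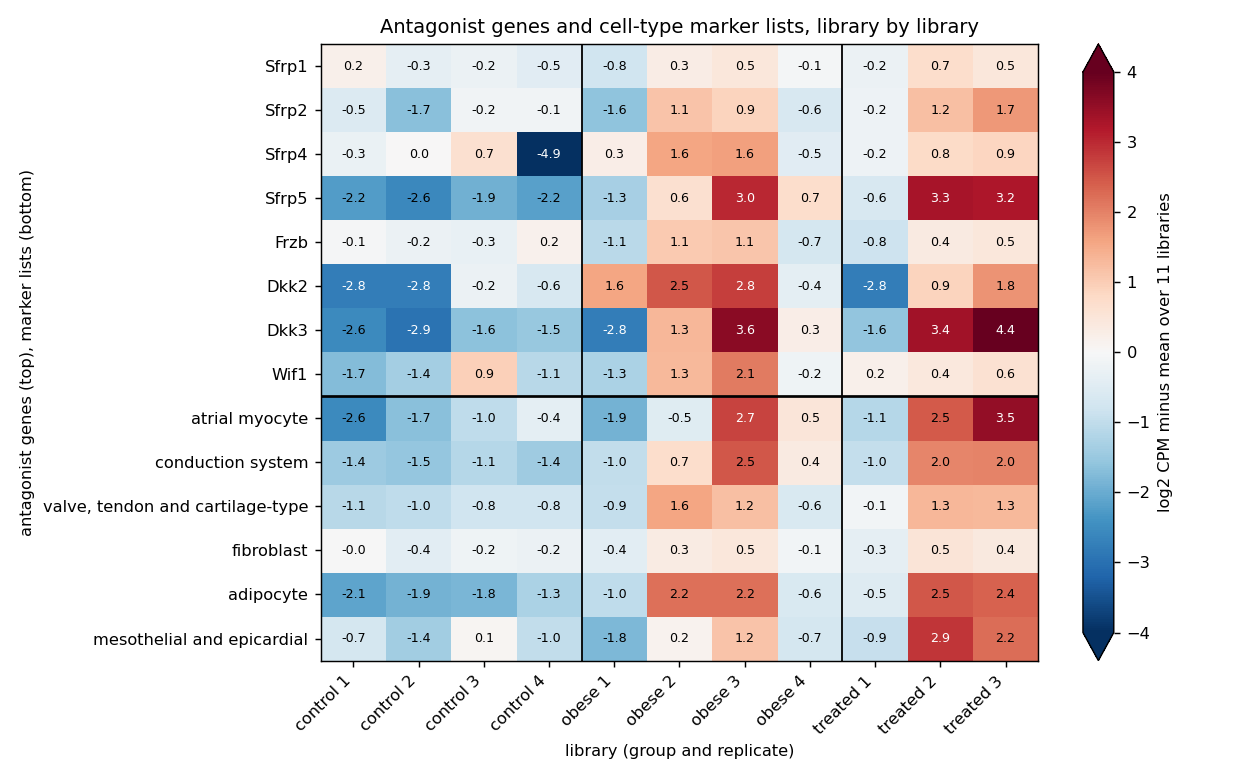
Rows are the 8 antagonists (top) and the mean of 6 marker lists (bottom), columns are the 11 libraries, and colour and numbers give log2 CPM minus the row's mean over the libraries. Obese 3 and treated 2 and 3 are high in the atrial list, Sfrp5 and Dkk3, and obese 2, with an atrial value of -0.47, is above the mean in all 8 antagonists, most in Dkk2 (2.48), and in the valve-type and adipocyte lists.

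The genes whose profiles over the 11 libraries were closest to each antagonist were sought among 12615 named genes with a mean of at least 1 CPM, by the same centred difference in log2 CPM. For Sfrp5 they were Unc80 (0.40), Cacna2d2 (0.42), a calcium channel subunit that stood in the list of conduction system markers, and Fras1 (0.67). Dkk3 was also closest to Cacna2d2 (0.51), followed by Gata5 (0.57), a transcription factor gene, and the relaxin receptor gene Rxfp1 (0.57). For Sfrp1 they were Cercam (0.12), Antxr1 (0.14) and Mxra8 (0.15). The closest profile to Frzb was that of Prelp (0.26), a matrix proteoglycan gene in the valve-type list, then Met (0.27) and Dse (0.31). Sfrp2 was closest to Ttc9 (0.41), Rab27b (0.41) and Mdfi (0.44), and Wif1 to Scd1 (0.62), Gria3 (0.66) and Megf10 (0.66). Sfrp4 and Dkk2, with few counts, had no profile closer than 1.11 and 1.15. These distances describe 11 libraries that share their group, depth and marker differences.

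The comparison of obese with control hearts asks which antagonists differ with the obesogenic diet. All 8 antagonists had positive log2 fold changes, from 0.23 for Sfrp1 to 4.05 for Dkk3, with a median of 1.29, against a median of 0.11 over all genes tested. By edgeR's quasi-likelihood test, Sfrp5 and Dkk2 passed the threshold of 0.05 on the adjusted p and the other 6 did not, while 30.1% of all genes passed in this comparison, 14.4% as higher. Nothing is read from this count, since the genes were chosen with these values known. Dkk2 also passed the low-count filter only through obese and treated libraries. Of the 8, only Sfrp5 had groups that did not overlap. Over all genes this held for 28.5%, with 13.8% higher and 14.7% lower in every obese library. Sfrp5 no longer passed without control replicate 1, 2, 3 or 4 (log2 fold change 3.75, 3.65, 3.88 and 3.77) or obese replicate 3 (2.48). Dkk2 no longer passed without control replicate 1, 2 or 4 (3.17, 3.16 and 3.79) or obese replicate 2 or 3 (3.36 and 3.17). Wif1 passed without control replicate 3 (2.38), and Dkk3 without treated replicate 1 (4.04). With all libraries, 3429 of all genes were called higher. Without control replicates 1 to 4 in turn there were 2190, 3752, 2435 and 2117, and without obese replicates 2 and 3 there were 2569 and 3136.

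The comparison of treated with untreated obese hearts asks whether the cocktail changed the antagonists. It passed none of them by edgeR's quasi-likelihood test, in which 0% of all genes passed (0 of 23779). At an unadjusted p under 0.05 the counts were 0 of the 8 antagonists and 2425 of all genes. DESeq2 and limma voom also called 0 of the 8, and over all genes DESeq2 called 51 higher and 80 lower and voom 0. Groups overlapped for all 8 antagonists, while they did not overlap for 10.1% of all genes (4.68% higher, 5.45% lower). The log2 fold changes were positive for Sfrp1, Sfrp2, Sfrp5 and Dkk3 and negative for Sfrp4, Frzb, Dkk2 and Wif1, with a median of 0.01 against -0.01 over all genes. Their 95% intervals were wide, from -1.78 to 4.64 for Dkk3 and from -1.12 to 3.49 for Sfrp5, and narrowest for Sfrp1, from -0.31 to 0.94. The intervals thus spanned rises of several fold in Dkk3 and Sfrp5, and falls of up to 1.78 (log2) in Dkk3 and 1.12 in Sfrp5. Nothing more is read from these counts and intervals, since the genes were chosen with these values known. Without obese replicate 3 and treated replicates 2 and 3 the log2 fold changes of Sfrp5 and Dkk3 were -0.88 and -1.95, but these are the highest libraries in both genes and the remaining treated library is the lowest of its group.

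The comparison of treated with control hearts shares its control libraries with the diet comparison. The log2 fold changes of the antagonists ran from 0.21 for Frzb to 5.47 for Dkk3, with a median of 1.21 against 0.05 over all genes. Sfrp5 alone passed edgeR's threshold, where 15.8% of all genes passed, 7.43% as higher. Of the 8, it alone lay higher in every treated than in every control library. Groups did not overlap for 27.9% of all genes, 13.7% higher and 14.1% lower. It no longer passed without control replicate 1, 2, 3 or 4 (4.94, 4.84, 5.07 and 4.96) or treated replicate 2 or 3 (4.56 and 4.61). Dkk3 passed without obese replicate 1 or 3 (5.48 in both cases) or treated replicate 1 (6.04). With all libraries, 1766 of all genes were called higher. Without control replicates 1 to 4 in turn there were 821, 1930, 1085 and 783, and without treated replicates 2 and 3 there were 1228 and 459.

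**Figure D3:**
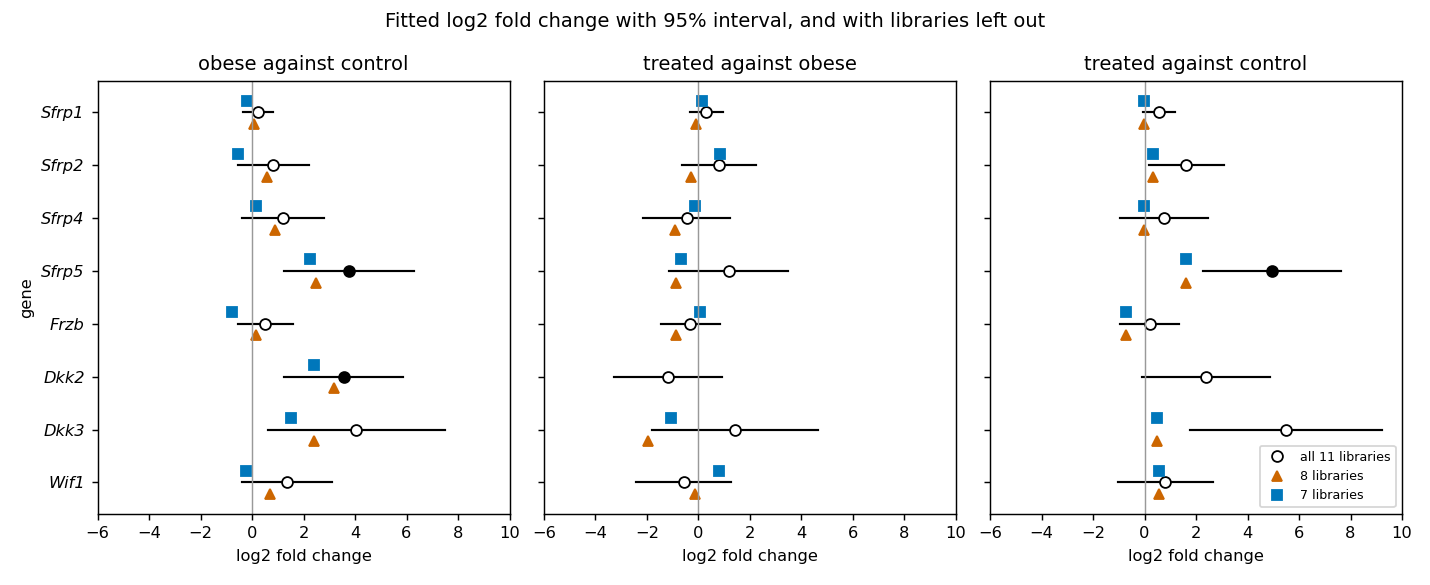
Circles are fitted log2 fold changes of the 8 antagonists from all 11 libraries with their 95% intervals, filled where edgeR's adjusted p was under 0.05. Orange triangles leave out obese 3 and treated 2 and 3 (8 libraries) and blue squares leave out obese 2 and 3 and treated 2 and 3 (7 libraries), except for Dkk2 against or for the treated group, whose remaining library held 0 counts. With diet, Sfrp5 is above 0 in each set, which was fixed in advance because every obese library lay above every control library. Frzb goes from 0.51 to -0.78 in the 7-library set, from which the libraries above all controls in Frzb were left out.

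The rest of the pathway was read from 6 further lists of 92 genes, of which 75 passed the low-count filter. These lists too were chosen with earlier results of these data known, so their adjusted p-values are descriptive. With the diet, 8 of the 75 were higher and 14 lower by edgeR's quasi-likelihood test, beside 14.4% and 15.7% of all genes. At an unadjusted p under 0.05 there were 29 of the 75, beside 10160 of all 23779 genes. The median log2 fold change of the 75 was 0.02. Upper-quartile scaling moved the median of all genes by 0.10 and turned their split from 3429 higher and 3737 lower to 4378 and 2926. Among 7 other secreted antagonists tested, 0 were called with the diet and 0 with the cocktail. Dkk1 and Cer1 were listed at 0 in all control and obese libraries.

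Among 12 WNT ligand genes tested, 3 were higher and 1 lower with the diet (median 0.11). Wnt2b rose from 4.76 ± 1.15 CPM (SD, n = 4) to 8.11 ± 1.38 CPM (SD, n = 4), 1.71-fold, and was higher in every obese than in every control library (edgeR adjusted p = 0.00736). Wnt4 rose 1.87-fold (edgeR adjusted p = 0.0166), and Wnt8b, near 1 CPM, 2.25-fold (edgeR adjusted p = 0.0312). Wnt11 fell 1.47-fold with overlapping groups (edgeR adjusted p = 0.0498). Of 16 receptor and co-receptor genes, 0 rose and 4 fell (median -0.10). The Frizzled genes Fzd6 and Fzd8 fell 1.52-fold and 1.57-fold (edgeR adjusted p = 0.000733 and 0.00167), with every obese library below every control library. Kremen1, which encodes a receptor for Dickkopf proteins, fell 1.44-fold (edgeR adjusted p = 0.0246). The co-receptor gene Lrp5 fell 1.26-fold with overlapping groups (edgeR adjusted p = 0.034). The call of Wnt8b was lost without control replicate 1, 3 or 4 or obese replicate 1 or 4 (adjusted p from 0.0575 to 0.102), and that of Kremen1 without control replicate 1 or 4 or obese replicate 1 or 3 (adjusted p from 0.0513 to 0.0767).

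Of 12 genes for agonists, WNT secretion and receptor turnover, 2 rose and 3 fell (median -0.06). The R-spondin receptor genes moved in both directions: Lgr4 fell 1.70-fold from 39.4 ± 6.88 CPM (SD, n = 4; edgeR adjusted p = 0.00161), Lgr6 fell 1.88-fold from 105.3 ± 16.9 CPM (SD, n = 4; edgeR adjusted p = 0.0042), and Lgr5, at 0.189 CPM on the control diet, rose 2.83-fold (edgeR adjusted p = 0.0261). The call of Lgr5 was lost without control replicate 1 or 3 or obese replicate 2 or 3 (adjusted p from 0.0537 to 0.0815). Rspo3, which encodes an R-spondin, rose 8.37-fold from 0.121 to 1.01 CPM with overlapping groups (edgeR adjusted p = 0.033). That was the largest fold change of the 75 pathway genes. Gpc4 fell 1.51-fold (edgeR adjusted p = 0.0284). Of 19 genes of the intracellular core, 1 rose and 5 fell (median -0.09). Tle3, a co-repressor, rose 1.59-fold, while the kinase genes Csnk1a1 and Gsk3a, whose products phosphorylate beta-catenin or its partners, fell 1.45-fold and 1.43-fold (edgeR adjusted p = 0.00108, 0.00224 and 0.00422). Ctnnb1, the gene of beta-catenin itself, fell 1.41-fold, Gsk3b 1.34-fold and Pygo1 1.54-fold (edgeR adjusted p = 0.00492, 0.018 and 0.0118).

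Of 15 genes used as beta-catenin targets, 3 rose and 1 fell with the diet (median 0.39). Nkd2, a feedback inhibitor, rose 1.98-fold (edgeR adjusted p = 0.012), and Myc, which many other pathways also control, fell 2.46-fold (edgeR adjusted p = 0.00524). Nkd1 rose 2.09-fold (edgeR adjusted p = 0.0465), with every obese library above every control library. Lgr5, given above, stands in this list too. Axin2, the most widely used readout of the pathway, was 4.43 ± 0.734 CPM in control (SD, n = 4), 6.34 ± 2.38 CPM in obese (SD, n = 4) and 7.47 ± 2.19 CPM in treated libraries (SD, n = 3). Its highest values, 9.76, 9.40 and 7.93 CPM, were in obese replicate 3 and treated replicates 2 and 3, the libraries with the highest atrial sums. It did not pass in any comparison over all 11 libraries (edgeR adjusted p = 0.133 for obese against control, 0.774 for treated against obese and 0.0708 for treated against control). Treated against control passed with DESeq2 (log2 fold change 0.73, adjusted p = 0.0460), in an edgeR fit of only these 2 groups (0.78, adjusted p = 0.0366), and without obese replicate 3 (0.76) or treated replicate 1 (0.96), and over all alternatives its adjusted p reached 0.843.

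With the cocktail 0 of the 75 pathway genes passed edgeR's test against obese hearts, and 0 of all genes did. At an unadjusted p under 0.05 there were 6 of the 75, beside 2425 of all 23779 genes. The median log2 fold change of the 75 was 0.19. Against control hearts, 7 were higher and 5 lower in treated hearts, beside 7.43% and 8.39% of all genes. Igfbp4, which encodes an IGF-binding protein that also blocks WNT receptors, was 64.2 ± 12.9 CPM in control (SD, n = 4) and 137.4 ± 56.2 CPM in treated libraries (SD, n = 3; edgeR adjusted p = 0.04996), at 72.6, 168.0 and 171.7 CPM in treated replicates 1 to 3. Wnt4 was 2.36-fold and Wnt2b 1.61-fold higher, and Fzd6, Fzd8 and Lgr4 were 1.53-fold, 1.495-fold and 1.46-fold lower (edgeR adjusted p from 0.00278 to 0.031 for these 5 genes). Tle3 was 1.72-fold higher, and Csnk1a1 and Ctnnbip1 were 1.49-fold and 1.46-fold lower (edgeR adjusted p = 0.00176, 0.00607 and 0.0212). Nkd1 and Nkd2 were 2.45-fold and 1.89-fold higher (edgeR adjusted p = 0.0424 and 0.0379). Leaving out 1 library ended the calls of Igfbp4 (control 1 to 4, obese 2 or 4, treated 2 or 3; adjusted p from 0.0603 to 0.187), Nkd1 (control 1 to 4, treated 2 or 3; 0.0689 to 0.195), Nkd2 (control 1, 2 or 4, treated 1 to 3; 0.0694 to 0.111) and Wnt2b (control 1, 3 or 4, treated 1 or 3; 0.0695 to 0.109). It also ended those of Lgr4 (control 1 or 4, treated 1 or 3; 0.0651 to 0.0945), Ctnnbip1 (treated 2 or 3; 0.0578 to 0.106), Wnt4 (treated 3; 0.0589) and Fzd8 (treated 3; 0.0621). Without obese replicate 3 and treated replicates 2 and 3, which left 1 treated library, 0 of the pathway genes passed.

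**Figure D4:**
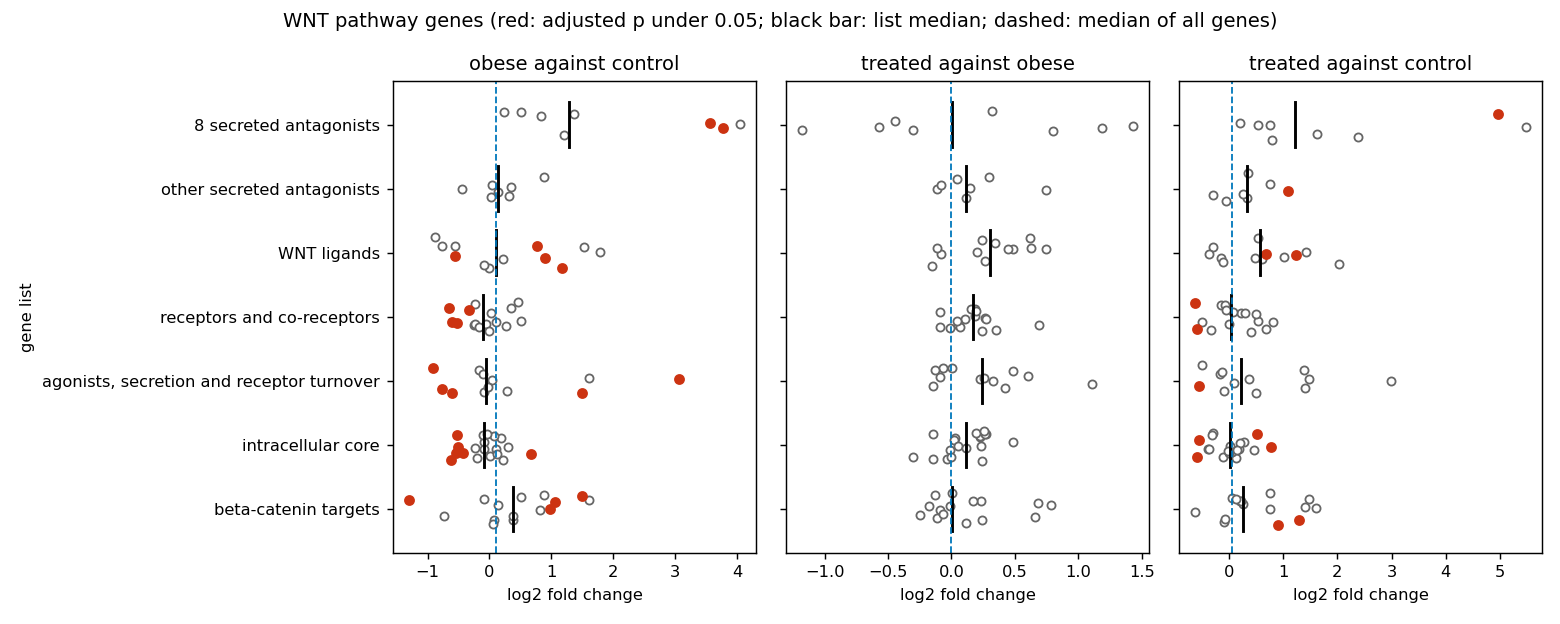
Points are genes of 7 WNT pathway lists, with the fitted log2 fold change on the horizontal axis in each of 3 comparisons, red where edgeR's adjusted p was under 0.05. Black bars are list medians and the dashed line is the median of all genes, and in obese against control the antagonist median lies at 1.29 and that of the receptors at -0.10.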

How the data were processed

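Hearts of 11 libraries were profiled by RNA sequencing. The deposited table holds whole-number counts per Ensembl gene, which the authors made with cutadapt, HISAT2 and StringTie on GRCm38, per the submitters' processing notes. The sources used here give no versions, annotation or strand use, and do not say whether the numbers are counted reads or estimates from coverage. GENCODE M21 (GRCm38) named 55227 of 55487 identifiers and gave exon lengths. The members and lists were chosen with earlier results of these data known. Genes were filtered with filterByExpr (minimum count 10, minimum total 15), scaled by TMM, and fitted over all 11 libraries in 3 groups with edgeR 4.0.16 in R 4.3.3 (robust glmQLFit, glmQLFTest), with Benjamini-Hochberg adjustment over 23779 genes and a threshold of 0.05. The biological coefficient of variation in common was 0.259, and a standard error is the absolute log2 fold change over the square root of F. Named genes were the 8 antagonists, up to 3 called genes of smallest p per pathway list and comparison, Axin2, and the 3 closest profiles per antagonist among named genes with a mean of at least 1 CPM. Rspo3, Gpc4, Ctnnb1, Gsk3b, Pygo1, Wnt11, Lrp5 and Nkd1 were named in addition, to complete the genes called with the diet in their lists. Their calls with the diet were not followed through the alternatives. The labels do not state separate animals, so p-values reflect only how far libraries spread, and that can be technical. Pairs of libraries of 1 group differed by a chi-square of 28.4 to 118 per degree of freedom, so none was counted as a repeat. On simulated counts of 23156 genes for obese against control, 99 of 100 genes changed by 1.5 (log2) were recovered. Of those changed by 3 (log2), 100 of 100 were recovered, and 12 unchanged genes were called. In the libraries themselves Dkk3 was not called with the diet at a log2 fold change of 4.05 (SE 1.502). Recovery at such a spread was not tested. Alternatives were other scalings and filters, DESeq2 1.42.0, limma 3.58.1 voom, fits of 2 groups, a replicate block, covariates and left-out libraries. The valve covariate and leaving out 4 libraries were added after seeing the data.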

Additional observations from a re-analysis of the deposited data

Results flagged for a closer look

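Among 52 gene-by-group sets of 4 libraries, 4 held 1 library whose gap to its nearest neighbour was too wide for the group's range by Dixon's test at the 95% level, as chance gives in about 1 of 20 sets. Sfrp5 was 22.1 CPM in obese replicate 3 against 4.40 CPM in the next obese library, and that library also held the highest atrial sum of its group. Wif1 was 5.79 CPM in control replicate 3 against 1.39 CPM in the next control library. The same library held the highest Vwf (295 CPM, against 55.5 to 126 CPM in the other controls) and Npr3 (68.6 CPM, against 13.7 to 28.5 CPM), both in the endothelial list of 8 genes. Of the other 6 genes of that list it was the highest control library in 0 and the lowest in Cdh5, Kdr and Tie1, and the sum of the list was 1159 CPM there against 919 to 1073 CPM in the other controls. The part of these markers in the Wif1 level was not tested. Gsk3a was 40.1 CPM in obese replicate 2 against 46.8 CPM in the next lowest. Ctnnbip1 was 15.1 CPM in control replicate 2 against 14.4 CPM in the next highest, a small difference in absolute terms.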

How the results depend on the processing

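Of the 8 antagonists, 2 were called higher and 0 lower with the diet, and 1 higher and 0 lower in treated against control hearts. With the diet, 1 was called higher with no low-count filter, with a filter of at least 1 CPM in 3 libraries, and with only the 2 groups compared. With limma voom 0 were, and 3 were with DESeq2 (Dkk3 added, 4.01) and with the replicate block (Sfrp4 added, 1.44). Of all genes tested, the no-filter, 1 CPM and 2-group fits called 2698 of 41491, 3308 of 16491 and 3263 of 22106 higher with the diet. Limma voom, DESeq2 and the replicate block called 3296, 3717 and 3315 of 23779 higher. Against control, the treated count was 2 under the 1 CPM filter, DESeq2 and the fit of only 2 groups, and 0 under limma voom. Those 4 fits called 1760 of 16491, 2310 of 23779, 1881 of 22544 and 1615 of 23779 genes higher. DESeq2 called 2818 lower. With no low-count filter 1236 of 41491 were higher, and with the replicate block 1264 of 23779. For the 75 other pathway genes (8 higher and 14 lower with the diet, 7 and 5 in treated against control), the latter comparison gave 4 higher with no low-count filter, 12 higher and 8 lower with DESeq2, and 3 higher with the replicate block. Without obese replicate 3 and treated replicates 2 and 3, treated against control gave 0 antagonists and 0 other genes higher and 0 lower, with only 1 treated library left, assumed to vary like the other groups. Axin2 in treated against obese then stood at -0.020.

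After the data were seen, 2 alternatives were added. Without obese replicates 2 and 3 and treated replicates 2 and 3, the diet gave 1 antagonist higher, 1 lower (Frzb, -0.78) and 4 other genes higher, and treated against control gave 0 antagonists higher, and 0 other genes higher and 1 lower. With the valve score as a covariate, the diet gave 0 antagonists higher, 1 lower (Frzb, -0.91) and 5 other genes higher, and treated against control gave 0 higher, 1 lower (Frzb, -1.49), and 4 other genes higher and 3 lower. With the valve score, 2565 of all 23779 genes were called higher and 2879 lower with the diet. In treated against control 677 were called higher and 618 lower. Both alternatives set apart the 4 libraries highest in Frzb, by leaving them out or by their valve score. The lower Frzb values cannot be read apart from that choice, and the cause was not tested.

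Leaving out 1 library at a time, antagonists called higher ran from 0 to 3 with the diet (0 without control 1, 2 or 4 or obese 3, 1 without obese 2) and from 0 to 2 in treated against control. Other pathway genes ran from 4 to 9 higher and 9 to 16 lower with the diet, the lowest without control 3 and control 1. In treated against control they ran from 1 (without treated 3) to 13 (without obese 3) higher, and from 2 (without treated 3) to 9 (without control 2) lower. Calls over all genes moved too. With the diet they ran from 2117 to 3752 higher and from 2800 to 4401 lower (without control 4 and control 2). In treated against control they ran from 459 (without treated 3) to 2015 (without obese 3) higher. Lower calls there ran from 552 (without treated 3) to 2722 (without control 2). Treated against obese gave 0 antagonists and 0 other pathway genes under all 23 alternatives. The replicate numbers did not pair the samples: same-numbered deviations correlated at -0.02 to 0.12 with the diet, 0.07 to 0.40 in treated against obese and -0.23 to 0.06 in treated against control. Few counts limit Dkk2 and Sfrp4 most.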
